A study of Mus musculus with 8 samples.

Results

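The 10 genes described here encode apolipoproteins made by the liver and the protein that loads lipid onto the Apob protein: Apoa1, Apoa2, Apoa4, Apoa5, Apob, Apoc1, Apoc3, Apoe, Apoh and Mttp. They were chosen by name, with earlier results of these data known, and the estimated counts of all transcripts of each gene were summed. All 10 were found among 35975 genes, with 44 annotated transcripts between them, and all 10 passed the minimum of 10 counts per library that left 12883 genes for testing. Liver RNA came from 8 C57BL/6 mice (C57BL/6J in the methods of the study), 4 infused with Normal Saline and 4 infused with 4-HPAA (4-hydroxyphenylacetic acid, a phenolic acid that gut bacteria make from polyphenols and amino acids). The infusion ran for 2 weeks through a catheter in the portal vein, fed by an osmotic pump under the skin. The pump delivered 0.25 µL per hour of either saline or saline with 55 mM 4-HPAA, so the control mice had the same operation and pump. The mice were 8 to 10 weeks old when obtained, and the study used both sexes. The labels do not give the sex of each mouse. The Y-linked gene Ddx3y lay between 72.1 and 89.5 TMM-scaled counts per 1000000 counts of the library (CPM) in all 8 libraries. Every library thus held RNA of a male mouse. The comparison asks whether the metabolite, delivered straight to the liver, goes with another level of these transcripts.

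Lipoproteins carry triglyceride and cholesterol through plasma. The liver builds very low density lipoprotein on the large scaffold protein encoded by Apob, to which the microsomal triglyceride transfer protein, encoded by Mttp, adds lipid in the endoplasmic reticulum, and it also secretes the proteins of high density lipoprotein, chiefly those of Apoa1 and Apoa2. Smaller exchangeable apolipoproteins then move between particles and set how fast they are hydrolysed by lipoprotein lipase and taken up by receptors. Apoa1, Apoc3, Apoa4 and Apoa5 stand side by side on chromosome 9, and Apoe and Apoc1 are neighbours on chromosome 7.

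The libraries held between 29559978 and 30673398 estimated counts each. Summed hepatocyte markers lay between 121553 and 144659 CPM in the Normal Saline mice and between 114229 and 141668 CPM in the 4-HPAA mice. The intestine is the other main source of Apob, Apoa4 and Mttp, and of 7 matched markers of intestinal epithelium 6 were under 1 CPM in every library (Vil1, Alpi, Cdx1, Cdx2, Lct and Muc2). The other, Fabp2, which encodes a fatty acid binding protein, lay between 44.4 and 66.2 CPM in the Normal Saline mice and between 43.6 and 63.0 CPM in the 4-HPAA mice. Of 9 pancreatic acinar markers, 7 were under 1 CPM in every library. Macrophages also make Apoe, and the 10 summed markers of Kupffer cells and macrophages ranged from 122 to 374 CPM in the Normal Saline mice and from 116 to 326 CPM in the 4-HPAA mice, with both of the lowest values in the mice numbered 4. The 5 summed erythroid markers reached 2560 CPM in Normal Saline replicate 2 and 734 CPM in 4-HPAA replicate 4, against 152 to 376 CPM in the other libraries. The marker Alas2 did not set 4-HPAA replicate 4 apart, at 97.02 CPM beside 97.13 CPM in 4-HPAA replicate 2. The part of these cells in the results below was not tested, and in whole liver fewer cells of a type and less RNA per cell cannot be told apart.

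The sequences before the chromosome 9 genes that are compared with each other across mice below, and before Apob, show the start regions of these genes. RefSeq sequence of GRCm38.p6 was matched to 8 of the 10 genes (Apoc1 and Apoc3 had no entry). Each stretch is on the plus strand and ends where the annotated gene begins, and capitals mark any match to a searched motif. Apoa1 occupies positions 46228580 to 46230466 of chromosome 9, and its stretch is chr9:46228380-46228579. Apoa4 occupies 46240696 to 46243459, and its stretch is chr9:46240594-46240695. Apoa5 occupies 46268633 to 46271919, and its stretch is chr9:46268383-46268632. Apob occupies 7977648 to 8016835 of chromosome 12, and its stretch is chr12:7977427-7977647.
Apoa1: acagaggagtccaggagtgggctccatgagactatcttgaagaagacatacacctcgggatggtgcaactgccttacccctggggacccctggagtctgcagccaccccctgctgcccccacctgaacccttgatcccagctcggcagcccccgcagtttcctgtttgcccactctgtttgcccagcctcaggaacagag
Apoa4: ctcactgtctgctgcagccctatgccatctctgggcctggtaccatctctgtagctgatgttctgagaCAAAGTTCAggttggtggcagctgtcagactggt
Apoa5: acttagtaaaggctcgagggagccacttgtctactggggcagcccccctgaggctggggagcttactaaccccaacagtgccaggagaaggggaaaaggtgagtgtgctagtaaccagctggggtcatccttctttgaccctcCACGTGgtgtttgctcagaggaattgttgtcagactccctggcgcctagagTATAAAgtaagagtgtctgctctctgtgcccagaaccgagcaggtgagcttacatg
Apob: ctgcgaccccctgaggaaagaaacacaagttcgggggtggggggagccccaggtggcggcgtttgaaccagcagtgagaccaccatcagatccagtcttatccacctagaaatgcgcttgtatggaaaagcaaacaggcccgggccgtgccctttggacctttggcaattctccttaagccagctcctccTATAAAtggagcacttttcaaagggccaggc

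The motifs were chosen after the sequences were seen and were searched on both strands of the whole windows, from 250 bases before to 50 bases after the RefSeq start. The motif CAAAGTNCA, bound by the hepatocyte factor HNF4, was found in the Apoa4 window and in 1.41% of all 32851 promoter windows. CACGTG, the E-box, was found in the Apoa5 window and in 7.15% of all windows. TATAAA, the letters of the TATA box, was found in the Apoa2, Apoa5 and Apob windows and in 13.6% of all windows. These matches begin at -212, -56 and -60 from the RefSeq start, and whether they act as TATA boxes was not tested. TGTTTAC, bound by FOXA factors, was in the Apoa2 and Apoh windows and in 3.65% of all windows, and AGGTCA, the core of nuclear receptor sites, was in the Apoh window and in 16.3% of all windows. The windows of Apoa1, Apoe and Mttp held none of these letters. The RefSeq start lay 12041 bases from the start of the main transcript for Mttp, 445 bases for Apoa5 and 180 bases for Apoe, and the windows of these genes do not cover that start. A longer motif, that of HNF1, was also searched and is not reported. AGGTCA overlaps none of the other matches in the Apoh window.

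The levels of the members spanned a wide range. On a length-scaled scale (counts divided by transcript length, scaled to the same total in every library, so that genes can be compared), Apoe had the highest level at 21921 ± 1902 (SD, n = 8), 3rd of all genes. Apoa1 followed at 13982 ± 3271, Apoa2 at 11165 ± 914 and Apoc1 at 10076 ± 1158, which placed them 8th, 11th and 13th of all genes. Apoe lay above Apoa1 in all 8 mice. Apoa1 lay above Apoa2 in 7 of 8 mice and Apoa2 above Apoc1 in 7 of 8, so the order of neighbours among these 3 was not the same in every mouse.

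Apoc3 came next in length-scaled level at 2803 ± 447, then Apoh at 2130 ± 217, and each lay above the next gene in all 8 mice. Apob stood at 1391 ± 62.9 and Apoa5 at 1269 ± 236, with Apob above Apoa5 in 5 of 8 mice. The Apob level rests on how its counts were divided between a long and a short transcript. With all Apob counts placed on the longest transcript, an alternative chosen after seeing the data, it was 661. Apoa4 at 254 ± 181 and Mttp at 151 ± 14.3 had the lowest levels, and Apoa4 lay above Mttp in 5 of 8 mice.

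**Figure D1:**
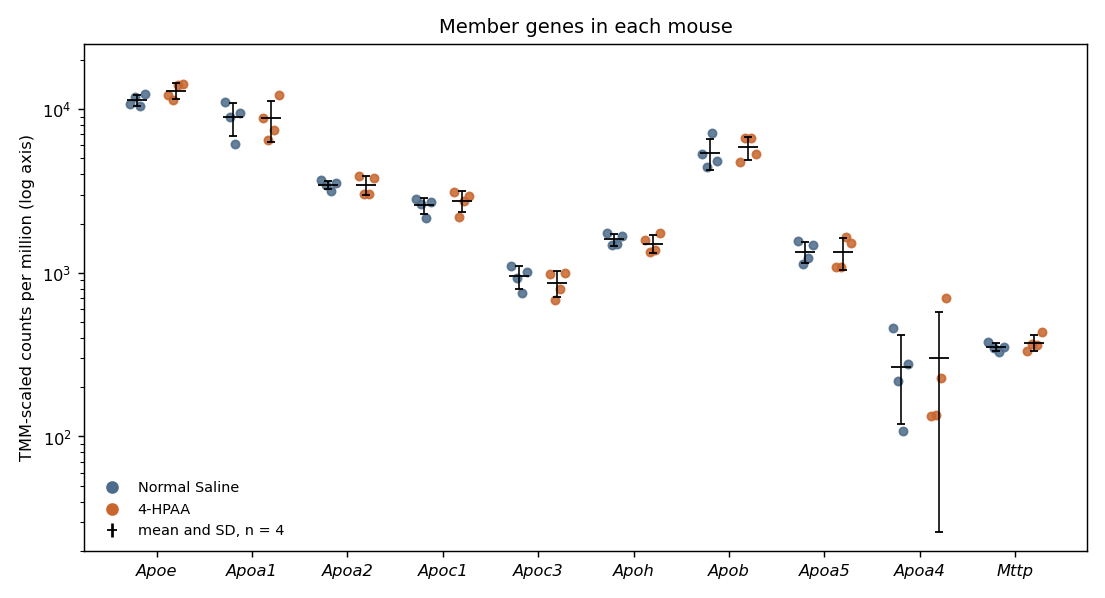
TMM-scaled CPM of each member gene (log axis) in each of the 8 mice, with genes ordered by length-scaled level from left to right. Points are mice, and black marks are the mean and SD of 4 mice. The groups overlap for all 10 genes, and the points of Apoa4 are the most widely spread, from 108 to 706 CPM.

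No difference between the groups was detected for any member. With edgeR's quasi-likelihood test over all 12883 genes, 0 of the 10 members passed an adjusted p of 0.05, and every member had an adjusted p of 1.00. Over all genes 0 passed as well, so the share called was 0%. At an unadjusted p under 0.05 there were 0 members with edgeR, DESeq2 or limma-voom, against 1.75% of all genes with edgeR. The CPM of the groups overlapped for all 10 members. Over all genes 1.2% had groups that did not overlap, a share that 10 genes cannot be told apart from. The fitted log2 fold changes (4-HPAA over Normal Saline) lay between -0.13 and 0.20, with 5 above and 5 below 0 and a median of 0.04, beside a median of 0.0007 over all genes. The median absolute log2 fold change was 0.09 for the members and 0.07 for all genes.

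**Figure D2:**
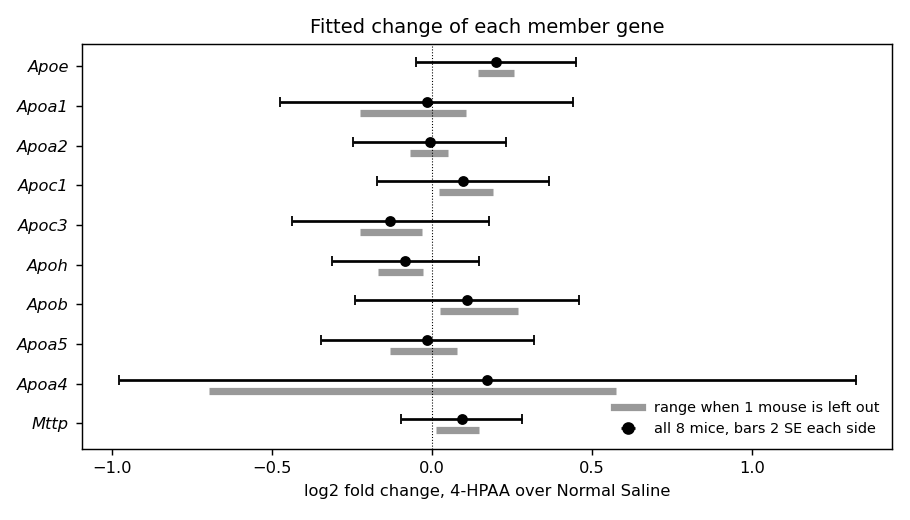
Log2 fold change of each member gene, 4-HPAA over Normal Saline, from the edgeR fit of 8 mice (points, with bars of 2 standard errors to each side), and the range of the fitted value when 1 mouse is left out (grey). All bars include 0, and Apoa4 has the widest, from -0.98 to 1.32.

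Apob encodes the structural protein of very low density lipoprotein, of which each particle carries a single copy. Its level in the Normal Saline mice, in the order of replicates 1 to 4 as for all values below, was 5294, 4448, 7099 and 4805 CPM. In the 4-HPAA mice it was 4768, 6668, 6631 and 5286 CPM. Both groups held higher and lower values, with Normal Saline replicate 3 the highest of all and Normal Saline replicate 2 the lowest. The log2 fold change was 0.11 (SE 0.18, adjusted p = 1.00 with edgeR). Reckoned as 2 standard errors to each side, the interval ran from -0.24 to 0.46.

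The annotated transcripts of Apob were divided unevenly between mice. Apob-202 (13934 nt, 29 exons) and Apob-201 (13369 nt, 28 exons) span the whole coding gene, and Apob-203 (2174 nt, 5 exons) lies at its 3′ end, from 8012359 to 8016835. All exonic bases of Apob-201 and of Apob-203 also lie in exons of Apob-202, so the division is an estimate from the reads that tell the transcripts apart. Apob-201 had 56051 estimated counts in Normal Saline replicate 2 and 55590 in 4-HPAA replicate 1, and between 88.1 and 8172 in the other 6 mice. The mice with high Apob-201 had the least Apob-202, at 33600 and 39363 counts, against 102720 to 181697 in the other mice. The difference was thus between mice of both groups, not between groups, with a log2 fold change of 0.04 (SE 1.67) for Apob-201 and 0.20 (SE 0.51) for Apob-202.

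Apob-203 took 21.5%, 30.9%, 14.6% and 26.1% of the Apob counts in the Normal Saline mice. In the 4-HPAA mice it took 30.5%, 11.9%, 14.9% and 22.2%. Its share was lowest in the 3 mice with the highest Apob total, which is in part built in, as the total is the denominator of the share. The estimated counts of Apob-203 were also lowest in these mice. They were 31643 in Normal Saline replicate 3, 23810 in 4-HPAA replicate 2 and 30523 in 4-HPAA replicate 3, and at least 33629 in the others. The log2 fold change of Apob-203 was -0.11 (SE 0.18).

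**Figure D3:**
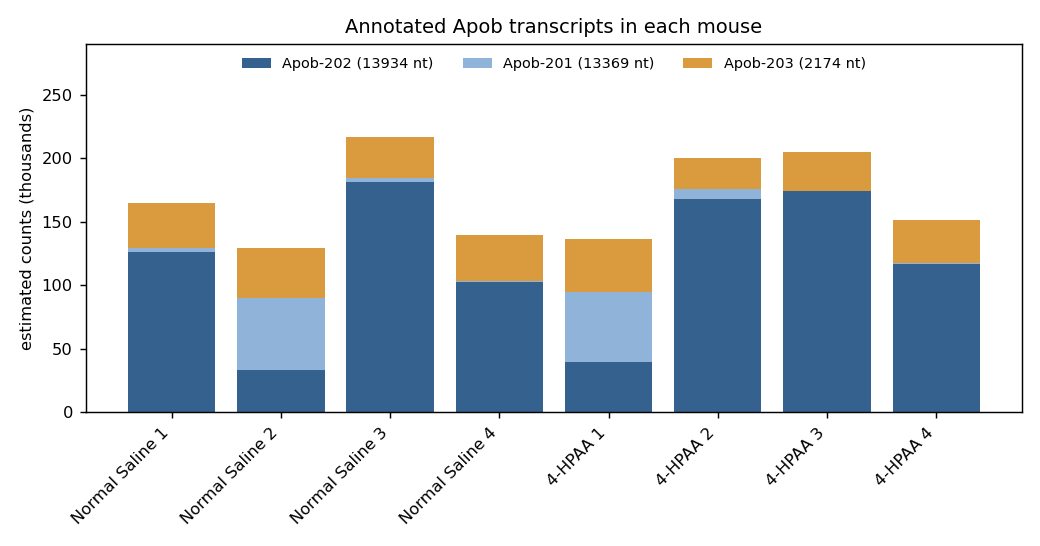
Estimated counts (in units of 1000) of the 3 tested Apob transcripts in each mouse, stacked from 0. Normal Saline replicate 2 and 4-HPAA replicate 1 are the only bars with a large Apob-201 part, at 56051 and 55590 counts, and the sum of the bars does not separate the groups.

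Mttp, on chromosome 3 from 138089854 to 138144968, encodes the transfer protein without which Apob protein is degraded. Its level was 379, 347, 330 and 352 CPM in the Normal Saline mice and 335, 370, 364 and 432 CPM in the 4-HPAA mice. The highest value was in 4-HPAA replicate 4 and the other 3 treated mice lay within the range of the controls. Its log2 fold change was 0.09 (SE 0.09, adjusted p = 1.00). Mttp had the smallest spread of the members, with a coefficient of variation (SD over mean, 8 mice) of 8.91%. Trmt10a overlaps Mttp on the other strand and had at most 5.14 CPM.

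The log2 ratio of Apob to Mttp counts was 3.80, 3.68, 4.43 and 3.77 with Normal Saline and 3.83, 4.17, 4.19 and 3.61 with 4-HPAA, which corresponds to between 12.2 and 21.5 counts of Apob for each of Mttp. Normal Saline replicate 3 had the highest ratio and 4-HPAA replicate 4 the lowest. The means differed by 0.03 (two-sided exact permutation test, p = 0.943), where the smallest p for 4 mice against 4 is 0.0286.

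Apoa1 encodes the main protein of high density lipoprotein, which accepts cholesterol from cells and activates the enzyme encoded by Lcat. Its level was 11054, 8901, 6097 and 9502 CPM in the Normal Saline mice and 8887, 6518, 7497 and 12226 CPM in the 4-HPAA mice. Both the lowest mouse of the controls (replicate 3) and the highest of the treated mice (replicate 4) stood apart from the mean by far more than the group means from each other. edgeR gave a log2 fold change of -0.02 (SE 0.23, adjusted p = 1.00). The interval of 2 standard errors to each side ran from -0.47 to 0.44. Transcript Apoa1-201 held 99.3% of the counts.

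Apoa2, on chromosome 1 from 171225054 to 171226379, encodes the second protein of high density lipoprotein. Its level was 3665, 3463, 3183 and 3527 CPM in the Normal Saline mice and 3912, 3015, 3051 and 3790 CPM in the 4-HPAA mice. The treated mice held both the highest and the lowest value. Between the groups, the log2 fold change was -0.01 (SE 0.12, adjusted p = 1.00). Its counts were divided almost evenly between Apoa2-204 (49.1%) and Apoa2-201, which share 489 of the 492 bases of the latter.

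The log2 ratio of Apoa1 to Apoa2 counts was 1.59, 1.36, 0.94 and 1.43 with Normal Saline and 1.18, 1.11, 1.30 and 1.69 with 4-HPAA. It ranged from 1.92 to 3.23 counts of Apoa1 for each count of Apoa2, so the balance of these transcripts varied between mice of a group. The means of the groups differed by -0.01 (two-sided exact permutation test, p = 0.971).

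Apoa4 encodes an apolipoprotein of triglyceride-rich particles and of high density lipoprotein whose liver transcript is known to respond to fasting and lipid load. Its level was 461, 218, 108 and 279 CPM in the Normal Saline mice and 133, 135, 227 and 706 CPM in the 4-HPAA mice. 4-HPAA replicate 4 was the highest and Normal Saline replicate 3 the lowest, a range of 6.55-fold. The log2 fold change was 0.17 (SE 0.58, adjusted p = 1.00), and the interval of 2 standard errors to each side ran from -0.98 to 1.32. Without 4-HPAA replicate 4 the value was -0.70, and without Normal Saline replicate 1 it was 0.57. Its coefficient of variation was 72.2%, above that of 99.6% of the 1254 genes with a mean of at least 100 CPM, whose median was 10.02%. Apoa4 has a single annotated transcript, and the genes Gm47528 and Gm10680 overlap it on the other strand.

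Apoa5 encodes a rare plasma protein that helps lipoprotein lipase act on triglyceride. Its level was 1557, 1127, 1238 and 1473 CPM in the Normal Saline mice and 1082, 1092, 1648 and 1519 CPM in the 4-HPAA mice. Of the treated mice 2 lay below all controls, 1 lay above all controls and 1 lay within their range. Its log2 fold change was -0.01 (SE 0.17, adjusted p = 1.00). Apoa5-201 held 79.1% of the counts, and the antisense gene Gm47544 overlaps Apoa5.

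Apoc3, from 46232933 to 46235636 of chromosome 9 on the minus strand, encodes an inhibitor of lipoprotein lipase and of particle uptake, and so acts opposite to Apoa5. Its level was 1107, 923, 756 and 1015 CPM in the Normal Saline mice and 989, 684, 799 and 1000 CPM in the 4-HPAA mice. The highest value was in a control and the lowest in a treated mouse, with the other 6 between them. edgeR gave a log2 fold change of -0.13 (SE 0.15, adjusted p = 1.00), the lowest of the members.

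The log2 ratio of Apoc3 to Apoa5 counts was -0.49, -0.29, -0.71 and -0.54 with Normal Saline and -0.13, -0.68, -1.04 and -0.60 with 4-HPAA. The treated mice held both the highest (replicate 1) and the lowest (replicate 3) ratio. The means differed by -0.11 (two-sided exact permutation test, p = 0.657). Adjusted over the 3 ratios compared, each of the 3 p-values was 0.971.

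Apoe, from 19696109 to 19699188 of chromosome 7 on the minus strand, encodes the ligand through which remnant particles are taken up by the liver. Its level was 10705, 11817, 10410 and 12316 CPM in the Normal Saline mice and 12263, 11386, 13993 and 14294 CPM in the 4-HPAA mice. The highest values were those of 4-HPAA replicates 3 and 4, and the other treated mice lay within the range of the controls. Apoe had the highest log2 fold change of the members, 0.20 (SE 0.12, adjusted p = 1.00 and unadjusted p = 0.143 with edgeR). The interval of 2 standard errors to each side ran from -0.05 to 0.45. With DESeq2 the unadjusted p was 0.0605. The summed Kupffer cell and macrophage markers stood at 183 CPM in 4-HPAA replicate 3 and 116 CPM in replicate 4, within and below the range of the controls.

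Of the 11 annotated Apoe transcripts, 10 were tested. Apoe-209, a coding transcript of 1104 nt, had 159707, 171361, 145655 and 173156 estimated counts with Normal Saline and 158538, 183711, 258665 and 246308 with 4-HPAA. Again 4-HPAA replicates 3 and 4 were the highest. Apoe-202, annotated as a processed transcript without a coding frame, had between 157463 and 170311 counts with Normal Saline and between 141410 and 176738 with 4-HPAA. It shares 681 of its 728 exonic bases with Apoe-209, so the division between them is uncertain. Between the groups, the log2 fold change was 0.41 (SE 0.17, unadjusted p = 0.0383) for Apoe-209 and -0.03 (SE 0.12) for Apoe-202.

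Over all members, 37 of the 44 transcripts were tested, and with edgeR 0 passed an adjusted p of 0.05 (0% of all 25533 transcripts). At an unadjusted p under 0.05 there were 4 member transcripts, all of them of Apoe, against 3.83% of all transcripts. Besides Apoe-209 these were Apoe-204, Apoe-206 and Apoe-207, with log2 fold changes of 0.32, 0.32 and 0.46. The count was 0 without 4-HPAA replicate 3, 1 without 4-HPAA replicate 4 or without Normal Saline replicate 3, 2 without Normal Saline replicate 1, and between 3 and 5 without any other mouse. The groups did not overlap, as shares of the library total, for Apoe-201 and Apoe-207, while 2.02% of all transcripts had groups that did not overlap. Apoe-207 had between 169 and 296 counts with Normal Saline and between 317 and 370 with 4-HPAA. These transcripts share reads with each other and are not separate observations of the gene.

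Apoc1, from 19689481 to 19692660 of chromosome 7 on the minus strand, encodes a small apolipoprotein that inhibits lipoprotein lipase and hinders remnant uptake. Its level was 2829, 2640, 2163 and 2703 CPM in the Normal Saline mice and 3134, 2202, 2762 and 2953 CPM in the 4-HPAA mice. Normal Saline replicate 3 and 4-HPAA replicate 2 were the lowest, and the other 6 lay between 2640 and 3134. The log2 fold change was 0.10 (SE 0.13, adjusted p = 1.00).

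Apoh, from 108343354 to 108414396 of chromosome 11, encodes beta-2-glycoprotein I, a phospholipid-binding plasma protein also found on lipoproteins. Its level was 1750, 1470, 1505 and 1670 CPM in the Normal Saline mice and 1581, 1334, 1369 and 1751 CPM in the 4-HPAA mice. 4-HPAA replicates 2 and 3 were the lowest, and the highest value of each group was all but equal. Its log2 fold change was -0.08 (SE 0.11, adjusted p = 1.00). Prkca overlaps it on the other strand and had at most 8.66 CPM.

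Summed over the members, the level was 38802, 35353, 32889 and 37642 CPM in the Normal Saline mice and 37084, 33403, 38340 and 43957 CPM in the 4-HPAA mice. The highest sum was in 4-HPAA replicate 4 and the lowest in Normal Saline replicate 3. The mean of the sum was 36172 ± 2616 with Normal Saline (SD, n = 4) and 38196 ± 4375 with 4-HPAA (SD, n = 4), 5.60% higher, which is less than the spread of the mice. Without 4-HPAA replicate 4 it was 0.288% higher. Members made up between 3.31% and 4.28% of all estimated counts, and Apoe and Apoa1 together between 50.2% and 60.3% of the members' sum.

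The libraries differed in how they weighed long against short transcripts, and the members followed this in part. The index used here is the median deviation of log2 CPM from the mean of the 8 libraries over 619 genes whose main transcript exceeded 8000 nt, minus the same over 976 genes under 1000 nt. It was 0.0055, -0.092, 0.29 and -0.18 in the Normal Saline libraries and -0.11, 0.31, 0.14 and -0.35 in the 4-HPAA libraries. No difference between the groups was found in it (two-sided exact permutation test, p = 0.943), and both contained libraries at the high and at the low end.

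Apob, the longest member, was highest in the 3 libraries with the highest index. Over the 8 libraries its log2 CPM had Pearson's r of 0.80 with the index (permutation test, p = 0.0203, Benjamini-Hochberg adjusted over 10 members p = 0.0407) and Spearman's rho of 0.74 (p = 0.0458, adjusted p = 0.0917). Apoa1, of 1035 nt, ran the other way, with r = -0.89 (permutation test, p = 0.00409, adjusted p = 0.0407) and rho = -0.81 (p = 0.0218, adjusted p = 0.0917). Apoa2, Apoc3 and Apoc1 had r of -0.83, -0.81 and -0.80, each with an adjusted p of 0.0407 in the permutation test, and rho of -0.81, -0.74 and -0.67 (adjusted p = 0.0917, 0.0917 and 0.119). Apoh and Apoa4 had r of -0.73 and -0.71 (adjusted permutation p = 0.0700 for both) and Apoe had r of -0.57 (adjusted permutation p = 0.183). Without the 2 libraries farthest from the median of the index, r was 0.53 for Apob, -0.72 for Apoa1, -0.69 for Apoa2, -0.48 for Apoc3 and -0.29 for Apoc1, so the relation rests in part on those libraries. Apoa5 had r = -0.27 and Mttp r = -0.47 (adjusted permutation p = 0.501 and 0.271). Apob is itself among the long genes of the index, and Apoa2, Apoc3 and Apoc1 are among the short ones. The signs of their r are thus in part built in, and the r and p-values with the index are a description. How many other genes of like length follow the index was not reckoned. What made the libraries differ was not tested.

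**Figure D4:**
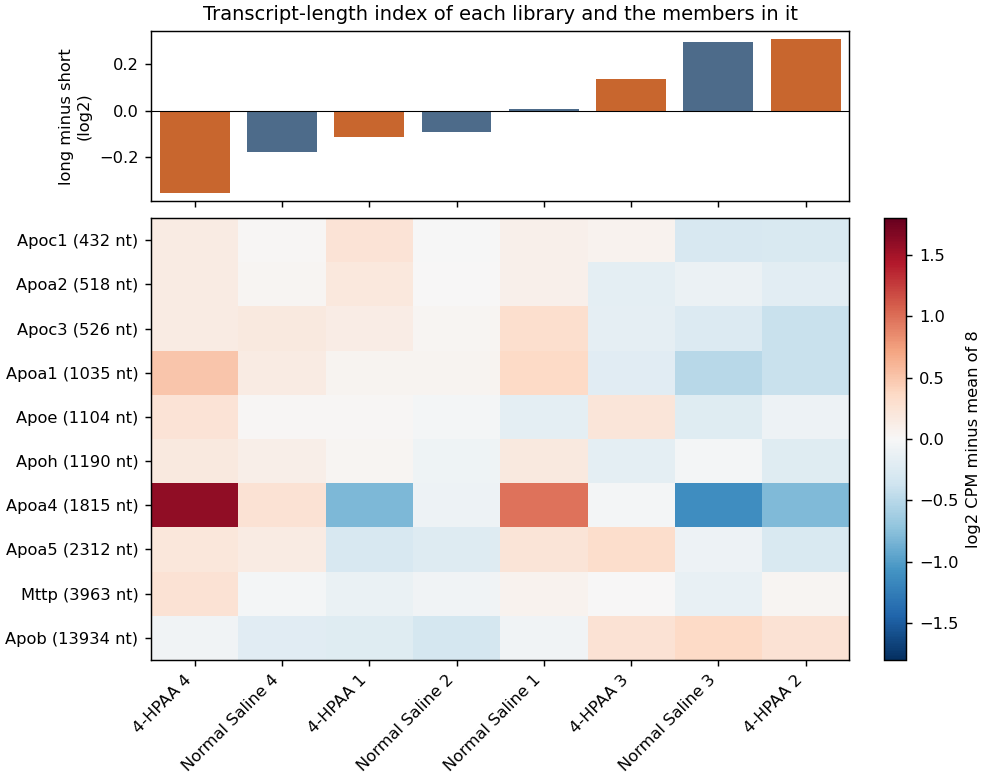
Upper panel, the transcript-length index of each library (log2, long minus short), in rising order, with Normal Saline in blue and 4-HPAA in orange. Lower panel, log2 CPM of each member minus its mean over the 8 libraries, with members ordered from the shortest (Apoc1, 432 nt) to the longest main transcript (Apob, 13934 nt). Apoa1 and Apoc3 are low and Apob is high in the 3 libraries at the right, and Apoa4 has the strongest colours in both directions.

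With each library's length trend removed as an offset in the edgeR fit, an alternative chosen after seeing the data, 0 members passed and the log2 fold changes of the members kept their signs.

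Pairs of members that are neighbours or act together were compared across the 8 mice. High r was not limited to neighbours. Over all pairs of members on different chromosomes, r ran from -0.79 (Apob and Apoc3) to 0.88 (Apoa2 and Apoc3), with 0.85 for Apoa4 and Mttp. With the length trend removed, Apoa2 and Apoc3 had r = 0.41 and Apoa4 and Mttp had r = 0.905. Of the 5 pairs chosen, 2 had an adjusted p under 0.05 in the permutation test of r. The pairs were chosen with earlier results of these data known, so their p-values are a description. Apoa1 and Apoc3 had r = 0.90 (permutation test, p = 0.00263, adjusted over the 5 pairs p = 0.0106) and rho = 0.88 (p = 0.00724, adjusted p = 0.0181). Taken as deviations from the group means, r was 0.93 (permutation within groups, adjusted p = 0.0174). Without Normal Saline replicate 3 and 4-HPAA replicate 4, the libraries farthest from the median of Apoa1, r was 0.98. With the length trend removed r was 0.67 (permutation test, adjusted p = 0.116), so it no longer passed without that trend.

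Apoa1 and Apoa4 had r = 0.89 (permutation test, p = 0.00424, adjusted p = 0.0106) and rho = 0.88 (p = 0.00724, adjusted p = 0.0181). As deviations from the group means r was 0.89 (adjusted permutation p = 0.0347), and with the length trend removed it was 0.89 (adjusted permutation p = 0.0231). Without Normal Saline replicate 3 and 4-HPAA replicate 4 it was 0.75 (rho = 0.71, adjusted permutation p = 0.205 for r), so with 6 libraries it no longer passed.

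**Figure D5:**
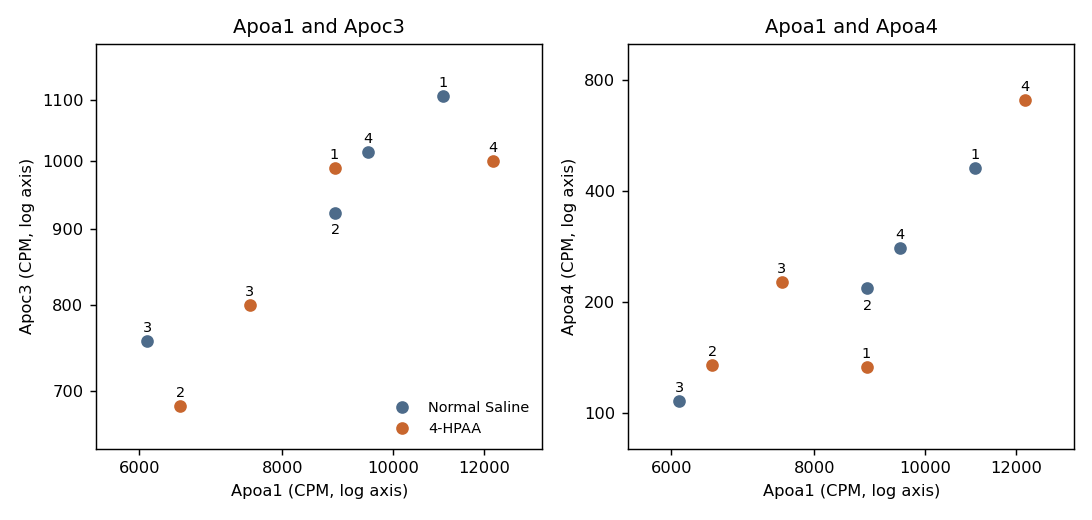
Apoc3 (left) and Apoa4 (right) against Apoa1 in CPM, both axes logarithmic, with each mouse as a point labelled by its replicate number. Points of both groups are interleaved in the left panel, and Apoa4 spans 108 to 706 CPM in the right panel while Apoa1 spans 6097 to 12226.

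The other pairs did not pass. Apoa4 and Apoa5 had r = 0.70 and rho = 0.69 (permutation tests, p = 0.0572 and 0.0694, adjusted p = 0.0953 and 0.116). Apoe and Apoc1 had r = 0.57 and rho = 0.57 (permutation tests, p = 0.129 and 0.151, adjusted p = 0.161 and 0.189). Apob and Mttp, scaffold and lipid loader, had r = -0.04 and rho = 0.095 (permutation tests, p = 0.939 and 0.840, adjusted p = 0.939 and 0.840). Without the 2 libraries farthest from the median these r were 0.62, 0.57 and 0.33.

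The genes most like Apoa4 over the 8 libraries were Slc30a1 (r = 0.98), which encodes a zinc exporter, Eif3f (r = 0.98), which encodes a subunit of a translation initiation factor, and Kat8 (r = 0.98), which encodes a histone acetyltransferase. Their ranges were far narrower than that of Apoa4, from 22.9 to 32.4 CPM for Slc30a1, from 45.7 to 67.4 CPM for Eif3f and from 11.9 to 14.6 CPM for Kat8. In all, 116 genes had an r over 0.9 with Apoa4. The genes most like Apob were Rasa1 (r = 0.97), Lmbrd2 (r = 0.97) and Gm37515 (r = 0.97), and 117 genes had an r over 0.9 with it. These r are a description, and the 8 libraries behind them share their depth and the length trend described above.

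Around the members, 72 further genes of lipoprotein metabolism were followed in 5 lists, of which 71 were tested (Apod was too low). With edgeR 0 passed an adjusted p of 0.05 in either direction, and 3 had an unadjusted p under 0.05 (also 3 with DESeq2 and 2 with limma-voom), beside 1.75% of all genes. Log2 fold changes were above 0 for 36 and below 0 for 35, with a median of 0.0061.

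Among other apolipoproteins, 0 of 6 tested genes passed, with a median log2 fold change of 0.07. Apoc2, the activator of lipoprotein lipase, had 121 ± 34.6 CPM in the Normal Saline mice and 127 ± 36.8 CPM in the 4-HPAA mice (SD, n = 4). Apoc4, which lies beside Apoc2 near Apoe, had 420 ± 55.5 and 469 ± 96.3 CPM. Apom, which carries sphingosine-1-phosphate on high density lipoprotein, had 172 ± 22.6 and 183 ± 26.9 CPM.

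Among 22 genes of lipoprotein assembly and secretion 0 passed, 13 lay above and 9 below 0, and the median log2 fold change was 0.03. P4hb, which encodes the subunit that the Mttp protein needs for its function, had 1119 ± 89.1 CPM in the Normal Saline mice and 1115 ± 41.2 CPM in the 4-HPAA mice. Apobec1, the editing enzyme that lets mouse liver make the short form of the Apob protein, had 12.0 ± 2.27 and 12.4 ± 1.59 CPM. Editing itself cannot be read from counts. Tm6sf2, which takes part in lipid loading of very low density lipoprotein, had 22.4, 19.7, 17.5 and 26.1 CPM in the Normal Saline mice and 17.0, 17.4, 18.2 and 21.9 CPM in the 4-HPAA mice. These overlap, and the log2 fold change was -0.20 (SE 0.13, unadjusted p = 0.157).

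Among 13 genes of lipoprotein remodelling and lipases 0 passed, 3 lay above and 10 below 0, and the median log2 fold change was -0.06. Pltp, which transfers phospholipid between particles, had 75.3, 46.5, 25.0 and 26.6 CPM in the Normal Saline mice and 24.8, 40.8, 23.8 and 20.9 CPM in the 4-HPAA mice. Between the groups, the log2 fold change was -0.65 (SE 0.35, unadjusted p = 0.0923), and -0.24 without Normal Saline replicate 1, the highest library. Lcat, which esterifies cholesterol on high density lipoprotein, had 317 ± 24.6 and 311 ± 24.1 CPM.

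Among 12 genes of lipoprotein uptake 0 passed, 7 lay above and 5 below 0, and the median log2 fold change was 0.01. Cd36, which takes up fatty acids and binds modified lipoproteins, had 43.8, 47.6, 47.3 and 43.2 CPM in the Normal Saline mice and 37.7, 41.0, 32.8 and 35.8 CPM in the 4-HPAA mice. All 4 treated mice lay below all 4 controls. The log2 fold change was -0.30 (SE 0.08, unadjusted p = 0.00435, adjusted p = 1.00 with edgeR). Of the 71 tested genes of these lists, 2 (Cd36 among them) had groups that did not overlap with 4-HPAA lower, beside 0.652% of all genes. None was higher without overlap, beside 0.543% of all genes.

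Among 18 regulators 0 passed, 9 lay above and 9 below 0, and the median log2 fold change was 0.0069. Hnf4a, which encodes a factor that many apolipoprotein genes need in hepatocytes, had 611 ± 71.8 CPM in the Normal Saline mice and 622 ± 37.0 CPM in the 4-HPAA mice. Creb3l3, a factor of the endoplasmic reticulum known to act on Apoa4 and Apoa5, had 293 ± 26.7 and 308 ± 34.1 CPM. Foxa2, a forkhead factor of liver lipid metabolism, had 12.4, 19.1, 11.9 and 16.4 CPM in the Normal Saline mice and 22.2, 12.0, 32.6 and 25.4 CPM in the 4-HPAA mice. 3 of the 4 treated mice lay above all controls and replicate 2 lay among them. For Foxa2 the log2 fold change was 0.63 (SE 0.27, unadjusted p = 0.0432, adjusted p = 1.00 with edgeR).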

How the data were processed

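Liver RNA of 8 mice (4 per group) was sequenced by the study as 100 bp paired reads from a strand-specific library kit. Per the labels, reads were checked with FastQC 0.11.9 and assigned with kallisto on GRCm38.p6, and the authors deposited 1 table of estimated counts per transcript and mouse, neither normalized nor pooled. Of values above 0, 9.36% were whole numbers. All 8 columns were matched to a sample by name, and 0 columns were left over. kallisto divides reads between transcripts that share sequence, and was run with standard parameters per the methods of the study, with no strand setting named, so counts of a gene and its antisense partner may be mixed.

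Transcripts were assigned to genes with GENCODE M21 (GRCm38), whose coordinates are given, counted from 1. This placed 116728 of the 119414 transcripts in 35975 genes, and the 2686 others held 0.703% to 1.06% of a library. Summed counts were rounded and tested with edgeR 4.0.16 (quasi-likelihood, TMM) in R 4.3.3 for the 12883 genes that reached 10 counts in each of the 8 libraries, with Benjamini-Hochberg adjustment. Single transcripts (25533) were tested the same way. Standard errors are the log2 fold change over the square root of F. CPM are TMM-scaled, and correlations used log2 CPM with a prior count of 2. The depth limits only genes near the minimum. For the members the spread between 4 mice sets the precision. The edgeR p-values set the difference between groups against the spread between mice of a group, estimated with the help of all genes. Those of the permutation tests compare the observed value with its values under rearrangements of the libraries. The groups were compared by edgeR, and 3 ratios by exact permutation tests. The alternatives tried were limma-voom (limma 3.58.1), DESeq2 1.42.0, RLE factors, total counts, other filters, each mouse left out, the replicate number as a block, and a lowess trend on transcript length (span 0.3) as an offset, the last chosen after seeing the data. The steps were tested on simulated data. Python 3 with pandas and scipy was used for the tables.

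The members, gene lists, ratios and pairs were chosen with earlier results of these data known. Genes named are the 10 members, the 5 pathway genes with the smallest p (as none passed), 10 genes chosen for their role, and the 3 genes most correlated with Apoa4 and with Apob, and 3 of these genes are not reported here. Summed markers of 9 cell types were read as levels. Those not given in the report ranged from 152 to 281 CPM (sinusoidal endothelium), 167 to 306 CPM (stellate cell), 23.7 to 46.2 CPM (cholangiocyte) and 4.70 to 8.32 CPM (adipocyte).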

Additional observations from a re-analysis of the deposited data

Results flagged for a closer look

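Within a group of 4 mice, a value was singled out where its gap to the nearest of the others exceeded the 95% critical value of Dixon's test on the range of the group. Of 78 groups examined (39 measures, each in both groups), 7 were singled out, where chance gives about 1 in 20 groups. Apoa4 in 4-HPAA replicate 4, at 706 CPM against 133 to 227 CPM in the other treated mice, had a gap of 0.836 of the range. The log2 ratio of Apob to Mttp in Normal Saline replicate 3 was 4.43 against 3.68 to 3.80 (0.833 of the range).

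Apob-201 had 56051 estimated counts in Normal Saline replicate 2 against 691 to 3432 in the other controls (0.95 of the range), and 55590 in 4-HPAA replicate 1 against 88.1 to 8172 in the other treated mice (0.854 of the range).

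Summed erythroid markers stood apart in Normal Saline replicate 2 at 2560 CPM against 247 to 376 CPM (0.944 of the range) and in 4-HPAA replicate 4 at 734 CPM against 152 to 163 CPM (0.981 of the range). The erythroid marker Alas2 was highest in Normal Saline replicate 2 (123.5 CPM). It did not set 4-HPAA replicate 4 apart (97.02 CPM, beside 97.13 CPM in 4-HPAA replicate 2). Summed cholangiocyte markers were 46.2 CPM in Normal Saline replicate 1 against 23.7 to 27.4 CPM (0.834 of the range).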

How the results depend on the processing

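The count of member genes past the threshold was 0 in all 16 alternatives, that of the 71 pathway genes likewise, and that of member transcripts in all 10. Over all genes, DESeq2 called 1 gene higher (Zfp36l2) and 1 lower (Ggnbp1) where edgeR called 0, and with each mouse left out in turn between 0 and 1 genes were called higher (CAAA01147332.1, without 4-HPAA replicate 1) and 0 lower. These genes are no members and were named after their values were seen. The study itself reported more differentially expressed genes from these livers with DESeq2, and what made the counts differ was not tested. The combined level of the members was 4.98% higher with 4-HPAA as a share of all counts and between 0.288% and 10.01% higher with 1 mouse left out.

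With 1 mouse left out, log2 fold changes of Apoa1 ran from -0.23 to 0.10, Apoa2 from -0.070 to 0.051, Apoa4 from -0.70 to 0.57, Apoa5 from -0.13 to 0.078, Apoc2 from -0.15 to 0.28, Apom from -0.027 to 0.16, Apobec1 from -0.047 to 0.15, P4hb from -0.057 to 0.035, Hnf4a from -0.050 to 0.085 and Lcat from -0.077 to 0.026, so their signs are not settled. The other members and Cd36, Foxa2, Pltp and Tm6sf2 kept their sign in every alternative. Group differences of the log2 ratios ran from -0.14 to 0.078 (Apoa1 to Apoa2), -0.27 to 0.038 (Apoc3 to Apoa5) and -0.050 to 0.20 (Apob to Mttp). The sign also turned for Apoa4 with limma-voom (-0.016) and P4hb with the length trend removed (0.0009). The correlation of Apob and Mttp was 0.21 with the length trend removed and 0.33 without the 2 libraries farthest from the median. The causes were not tested.

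Same-numbered mice had deviations that correlated at 0.040, 0.17, 0.27 and 0.48 across genes for numbers 1 to 4, against a mean of -0.078 for pairs of other numbers, and not every library correlated best with its own number. The deviations were taken from the mean of each group, so positive values for some pairs force negative ones for others. The mean for pairs of other numbers is thus no independent baseline. As number 1 stayed under 0.1 and the labels name nothing shared, the numbers were not taken as pairs, which these values do not settle. In a fit with the number as replicate block, 0 genes passed (smallest adjusted p = 0.119 with edgeR), 336 had an unadjusted p under 0.05, against 225 without it, and the correlation was 0.33 for Apob and Mttp, 0.89 for Apoa1 and Apoc3, 0.86 for Apoa4 and Apoa5 and 0.99 for Apoe and Apoc1 (exact permutation over 4 numbers, adjusted p = 0.208 for each of these 3), and 0.90 for Apoa1 and Apoa4 (adjusted p = 0.365). With so few rearrangements of 4 numbers, a single pair could not reach an adjusted p under 0.05 whatever its r, so these p-values decide nothing.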

Other observations

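Of the 116 genes with an r over 0.9 with Apoa4, 2 were picked after their values were seen, as genes known from fuel metabolism. Neither is among the 3 genes most like Apoa4 that were named above, and the 2 do not stand for the 116. Whether the mice differed in fasting or fuel state was not tested. Fgf21, which encodes a hormone that the liver releases in fasting, had 2.92, 1.03, 0.590 and 1.44 CPM with Normal Saline and 0.629, 0.4001, 1.68 and 5.95 CPM with 4-HPAA. The highest and the second highest Fgf21 were in the mice with the highest and the second highest Apoa4, 4-HPAA replicate 4 and Normal Saline replicate 1 (r = 0.967 over 8 libraries, as a description). Slc16a1, which encodes a transporter of lactate and ketone bodies, had 40.9, 34.0, 31.0 and 35.0 CPM with Normal Saline and 30.03, 31.7, 37.1 and 44.9 CPM with 4-HPAA (r = 0.968). The log2 fold change was 0.52 (SE 0.77) for Fgf21 and 0.03 (SE 0.13) for Slc16a1, both with an adjusted p of 1.00 with edgeR.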
